A study of Mus musculus with 15 samples.

Results

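Within Klf3 knockout (KO) fetal liver, TER119 positive cells were compared with TER119 negative cells on 7 of the 15 arrays of the study. The members were chosen by array title: 3 arrays of KO TER119 positive cells and 4 arrays of KO TER119 negative cells. Every sample came from fetal liver of the mouse strain FVB/NJ at embryonic day E14.5. TER119 positive cells had been held back on a magnetic column after labelling with beads against TER119, and TER119 negative cells were those left after such cells were depleted. The other 8 arrays were 4 each of wild-type (WT) TER119 positive and TER119 negative cells from the same strain and age. Their values enter no KO mean or difference, but they share the choice of probe set per gene and the fit. They thus bear on which probe set stands for a gene and on the SEs and adjusted p-values of the KO comparison. They also serve to test where the fractions differed otherwise in KO. The labels say neither which part of Klf3 was deleted nor whether each array stands for an embryo or litter of its own, so the tests rest on the variation from array to array, some or all of which may be technical.

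At this age the fetal liver is the main site of red cell formation. Progenitors marked by KIT and CD34 become erythroblasts that fill with haemoglobin, wind down their nucleus and organelles and shed the nucleus, and the TER119 antigen appears on their surface as this begins. The remaining liver holds hepatoblasts, macrophages that sit at the centre of erythroblast islands, endothelial and stromal cells, and granulocyte, megakaryocyte and lymphoid precursors. KLF3 is a zinc finger repressor that binds CACCC boxes and that the erythroid activator KLF1 switches on.

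Values are deposited log2 expression, so that a difference of 1 is a 2-fold change. Array medians lay between 5.28 and 5.43. Correlations between arrays were 0.992 to 0.995 within KO TER119 positive, 0.982 to 0.995 within KO TER119 negative and 0.840 to 0.869 between the fractions, and the first principal component of the 7 KO arrays, which separated the fractions, held 90.4% of the variance. No 2 arrays of a KO fraction held the same values, the smallest SD of the difference between a pair being 0.19. Sex-linked genes gave 2 female and 1 male KO TER119 positive arrays, 3 female and 1 male KO TER119 negative arrays, 2 female and 2 male WT TER119 positive arrays and 4 male WT TER119 negative arrays. The array names follow a different pattern in each fraction, and whether a batch coincided with the fraction cannot be told apart from the fraction itself. The Klf3 probe set did not separate the genotypes, at 10.55, 10.34 and 10.52 in KO against a mean of 10.22 in WT among TER119 positive cells, so KO rests on the labels.

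The defining markers of red cell precursors were high in the TER119 positive arrays. Slc4a1, which encodes the band 3 anion exchanger of the red cell membrane, stood at 13.31, 13.27 and 13.24 in the TER119 positive arrays and at 8.0, 8.30, 8.82 and 8.47 in the TER119 negative arrays. Every TER119 positive array lay far above every TER119 negative array, a difference of 4.88 or 29.4-fold (SE 0.18, adjusted p = 2.71e-12). Adjusted p-values are from limma's moderated test, 2-sided, with Benjamini-Hochberg adjustment over all 19938 genes, and the threshold was 0.05. The progenitor marker Kit ran the other way, at 6.38, 6.03 and 6.66 against 9.19, 9.53, 9.58 and 8.77, a difference of -2.91 (SE 0.28, adjusted p = 1.92e-07).

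Marker genes of several other cell types were also higher in the TER119 positive arrays. The mean of 43 measured hepatocyte-lineage genes lay between 8.89 and 9.33 in the TER119 positive arrays and between 5.18 and 6.01 in the TER119 negative arrays, and the mean of 29 macrophage genes lay at 7.43 to 7.63 against 5.73 to 6.06. Endothelial and stromal lists were higher in the TER119 positive arrays as well, while neutrophil, mast cell and progenitor genes were higher in the TER119 negative arrays. The erythroid differences below therefore compare fractions that also differed in marker genes of these other cell types, whose part in them was not tested. In RNA of mixed cells, a larger number of cells of a type and more RNA per cell cannot be told apart.

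**Figure D1:**
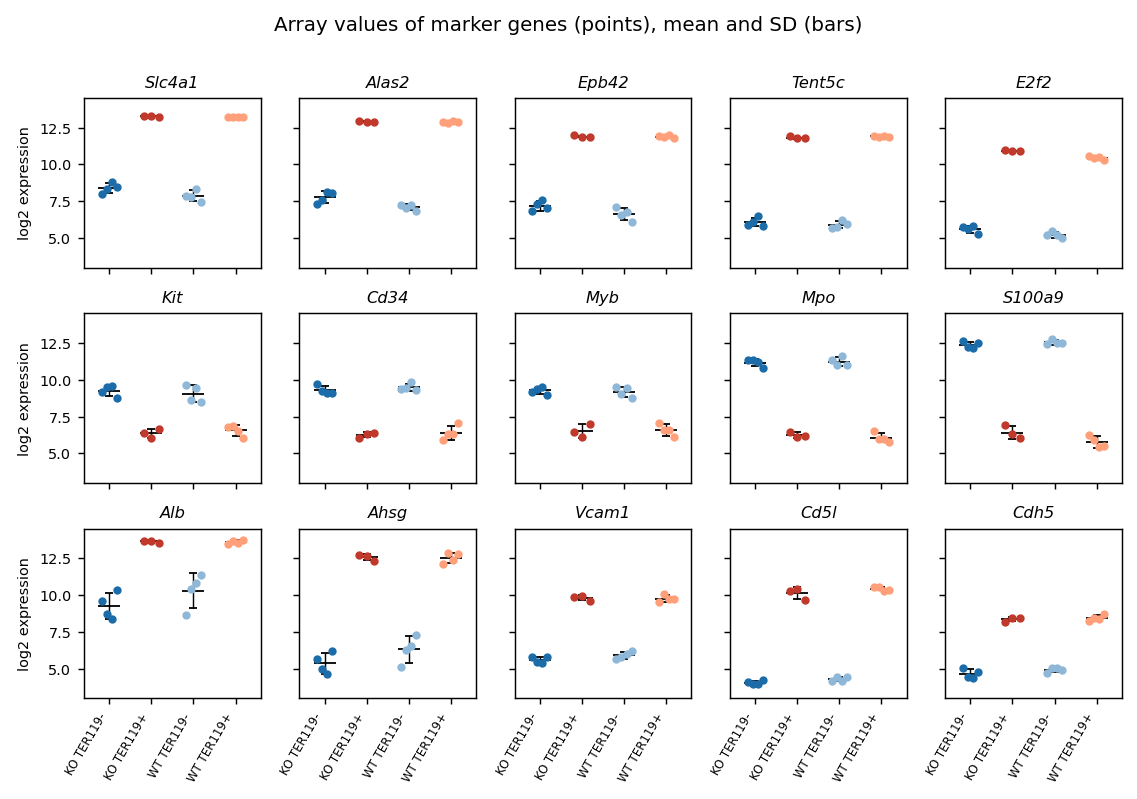
Deposited log2 expression of 15 marker genes on each of the 15 arrays (points), with the mean and SD of each group (bars); the horizontal axis gives the 4 groups. Erythroid (Slc4a1, Alas2, Epb42, Tent5c, E2f2), hepatocyte (Alb, Ahsg), macrophage (Vcam1, Cd5l) and endothelial (Cdh5) genes lay higher in every KO TER119 positive array than in any KO TER119 negative array, and progenitor (Kit, Cd34, Myb) and granulocyte (Mpo, S100a9) genes lay lower, S100a9 at 6.02 to 6.92 against 12.18 to 12.59.

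A large share of all genes differed between the fractions. The threshold was passed by 9777 (49.0%) of 19938 genes, and expression in TER119 positive cells was higher for 4502 (22.6%) of all genes and lower for 5275 (26.5%). The KO arrays of the fractions did not overlap for 11182 genes (56.1%), 5021 (25.2%) with the TER119 positive arrays above and 6161 (30.9%) with them below. A change of at least 2-fold as well was seen for 2296 genes (11.5%) that were higher and 2060 (10.3%) that were lower. The median difference over all genes was -0.059, and differences ran from -6.03 to 7.20. Centring each array on its ribosomal protein genes moved that median to 0.530 and the share of calls that were higher from 46.0% to 86.5%, and centring on the median of all genes moved them to -0.162 and 36.6%, so directions of small differences are relative to the deposited scaling. Counts of list members below are to be read against these shares of all genes.

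The largest rises were led by liver secretory genes. Ahsg, which encodes the serum carrier fetuin-A, stood at 12.74, 12.64 and 12.34 in TER119 positive arrays and at 5.65, 4.97, 4.65 and 6.21 in TER119 negative arrays, a difference of 7.20 (SE 0.41, adjusted p = 3.27e-10). The groups lay far apart, although the TER119 negative arrays themselves spread over more than a log2 unit. Next came Rsad2, which encodes the interferon-inducible antiviral enzyme viperin, with 6.65, then Serpinf2 (alpha-2-antiplasmin, 6.54), Ugt2b34 (a glucuronosyltransferase, 6.26) and Plg (plasminogen, 6.13). The macrophage gene Cd5l followed with 6.05, and Vtn (6.02), Hpx (6.02), Fgb (6.0), Apob (5.98), Ambp (5.85) and Itih3 (5.77) are products of liver parenchyma. Of the 119 genes (0.597% of all) that were at least 16-fold higher, 27 were in the hepatocyte or the complement and coagulation list, 17 in a red cell list and 5 in the macrophage list, and 67 were in none of the lists.

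The largest falls were in granulocyte genes. S100a9, which encodes a calcium-binding alarmin of neutrophils, stood at 6.92, 6.30 and 6.02 in TER119 positive arrays and at 12.59, 12.19, 12.18 and 12.48 in TER119 negative arrays, a difference of -5.95 (SE 0.21, adjusted p = 1.53e-12). The protease inhibitors Stfa3 (-6.03) and Csta3 (-5.51), the precursor marker Ms4a3 (-5.76), the collagenase Mmp8 (-5.74), the inhibitor Cst7 (-5.70) and the eosinophil granule protein gene Prg2 (-5.67) were lower to a like degree. Retnlg (-5.36), Ngp (-5.26), S100a8 (-5.22), the mast cell carboxypeptidase Cpa3 (-5.12) and Serpinb1a (-5.09) complete the 12 largest falls. Of the 46 genes (0.231%) that were at least 16-fold lower, 16 were in the neutrophil list and 1, Cpa3, in the mast cell list, and 28 were in none of the lists.

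**Figure D2:**
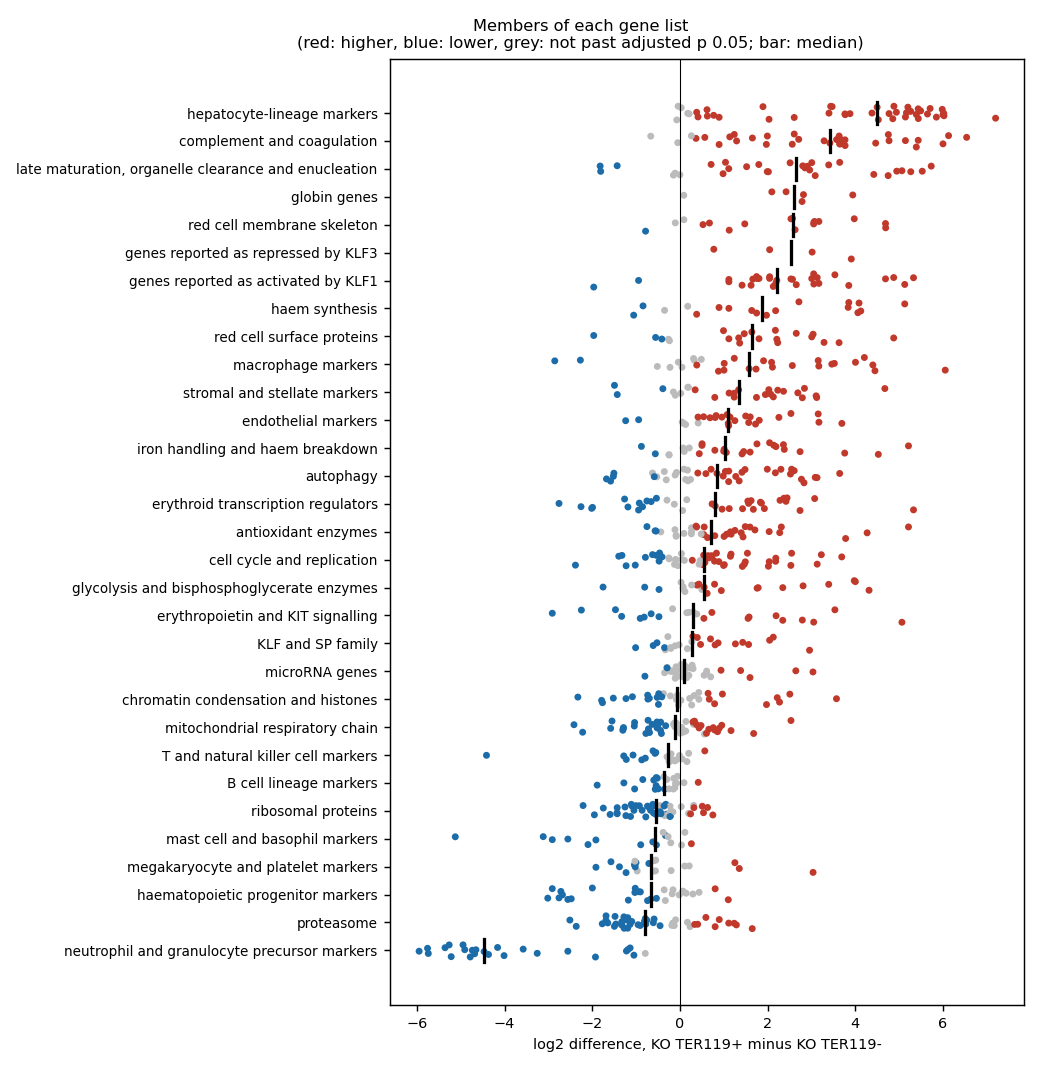
Log2 difference between KO TER119 positive and KO TER119 negative cells (horizontal axis) for the measured members of 31 gene lists (rows, ordered by median); each point is a gene, red where higher and blue where lower with adjusted p under 0.05, grey otherwise, and the black bar is the list's median. Medians ran from -4.47 for the neutrophil list to 4.50 for the hepatocyte list.

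Genes of the red cell surface and of the skeleton beneath it were higher in TER119 positive cells. Of 21 measured surface genes, 16 were higher and 3 lower, with a median difference of 1.64 against -0.059 over all genes. Beside Slc4a1, the glycophorin C gene Gypc stood at 10.54, 10.31 and 10.68 against 7.02, 7.24, 6.95 and 6.31, a difference of 3.63 (SE 0.21, adjusted p = 5.17e-10), with no overlap between the groups. Kel, a blood-group endopeptidase, differed by 3.01, Rhd by 2.65, the complement inhibitor gene Cd59a by 3.29 and the water channel gene Aqp1 by 1.8. Rhag, which encodes the partner of the Rh protein, differed by only 0.99 (SE 0.17, adjusted p = 0.000128), being at 10.94 to 11.67 already in the TER119 negative arrays.

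The 3 surface genes that were lower were Cd44 (-1.97), an adhesion receptor that erythroblasts lose as they mature, the urea transporter gene Slc14a1 (-0.41) and the complement regulator gene Cd55 (-0.55). Cd47 (-0.26) and Cd24a (-0.24) did not pass the threshold, and Cd24a passed it without KO TER119 negative replicate 1 (-0.36, adjusted p = 0.0361). Slc14a1 and Cd55 turned to 0.175 and 0.034 when arrays were centred on ribosomal protein genes, and Cd44 remained lower. The list thus held genes moving in both directions, the lower ones by less than the higher ones except for Cd44.

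Of 17 measured membrane skeleton genes, 14 were higher, with a median of 2.57. Epb42 encodes protein 4.2, which ties band 3 to ankyrin, and stood at 11.96, 11.87 and 11.84 in TER119 positive arrays against 6.86, 7.29, 7.62 and 7.03. Its difference of 4.69 (SE 0.20, adjusted p = 9.61e-12) equalled that of Tmod1 (4.69, SE 0.18), which encodes the cap of the short actin filaments. The spectrin gene Sptb differed by 3.17, the ankyrin gene Ank1 by 2.57 and the dematin gene Dmtn by 3.05. Tmod3, a tropomodulin of nucleated cells, was lower (-0.78, SE 0.12, adjusted p = 2.54e-05; -0.195, adjusted p = 0.168 with arrays centred on ribosomal protein genes), while Tpm3 (0.09) and the non-erythroid spectrin gene Sptbn1 (-0.11) did not pass.

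Among globins, 6 of the 14 listed genes were measured, since the adult alpha and beta globins share probe sets, and Ahsp is among those not analysed here. The embryonic genes Hbb-bh1, Hbb-y and Hba-x and the theta genes Hbq1a and Hbq1b were higher, and Hbb-bh2 (0.09, SE 0.10, adjusted p = 0.518) did not pass. Hbb-bh1 stood at 7.99, 8.67 and 8.84 against 4.58, 4.20, 4.24 and 5.22, a difference of 3.94 (SE 0.34, adjusted p = 4.51e-08). Hbb-y stood at 12.04, 12.29 and 12.50 against 9.69, 9.24, 8.41 and 10.50, a difference of 2.82 (SE 0.54, adjusted p = 0.000292), with a wide spread among the TER119 negative arrays. Hba-x (2.42), Hbq1a (2.79) and Hbq1b (2.10) lay in the same range. These family members are close in sequence, so a probe set may take up part of a neighbour's signal.

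Haem synthesis genes were higher in 14 and lower in 2 of 18, with a median of 1.86. Alas2, the erythroid enzyme that starts haem synthesis, stood at 12.96, 12.90 and 12.84 in TER119 positive arrays and at 7.29, 7.60, 8.14 and 8.05 in TER119 negative arrays, a 35.0-fold difference (log2 5.13, SE 0.17, adjusted p = 6.3e-13). Its housekeeping counterpart Alas1 went the other way, at 6.71, 6.99 and 6.66 against 7.93, 8.06, 7.94 and 7.43 (-1.05, SE 0.21, adjusted p = 0.000514). The arrays of the fractions did not overlap for either isoenzyme, but the Alas1 call was lost with arrays centred on ribosomal protein genes (-0.466, adjusted p = 0.0894).

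Later steps and transporters of the pathway were higher too. Ppox, the penultimate enzyme, differed by 4.13 (SE 0.24), Fech, which inserts the iron, by 2.71 (SE 0.23), and the mitochondrial carriers Slc25a37 (mitoferrin, which brings in iron), Slc25a38 (a glycine carrier) and Abcb10 by 3.85, 3.84 and 4.09. The haem exporter gene Flvcr1 was the other lower member (-0.84, SE 0.19, adjusted p = 0.00141), a call lost with arrays centred on ribosomal protein genes (-0.253, adjusted p = 0.310). Tmem14c (0.18) and Clpx (-0.35) did not pass, although Clpx passed without KO TER119 negative replicate 4 (-0.43, adjusted p = 0.0211) and without any of WT TER119 positive replicate 2 or WT TER119 negative replicates 1, 2 and 4, which leave its difference as it was.

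Iron handling and haem breakdown genes were higher in 20 of 28 and lower in 2, Hmox2 (-0.56) and Hamp2 (-0.88), with a median of 1.03. With arrays centred on ribosomal protein genes Hmox2 turned to 0.028 and Hamp2 no longer passed (-0.29, adjusted p = 0.308). The transferrin receptor gene Tfrc was at 12.99, 12.96 and 13.02 against 11.21, 11.57, 11.74 and 11.78 (1.42, SE 0.13, adjusted p = 9.12e-08). Steap3, the endosomal ferrireductase, differed by 2.05 and Slc11a2, the endosomal iron transporter, by 2.19. The largest differences of the list were in Hmox1, haem oxygenase (10.81, 10.99 and 10.76 against 5.98, 5.46, 5.46 and 5.65; 5.21, SE 0.17, adjusted p = 7.94e-13), Trf, transferrin (4.53, SE 0.32), and Slc40a1, the iron exporter ferroportin (3.76, SE 0.18). Macrophages that take up expelled nuclei express Hmox1 and Slc40a1, and hepatocytes secrete transferrin, and the marker lists of both cell types were higher in the same 3 arrays; their part in these values was not tested.

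Regulators of the erythroid programme differed in both directions. Of 35 measured, 19 were higher and 12 lower. E2f2, an E2F factor needed for the last divisions, stood at 10.98, 10.91 and 10.88 against 5.73, 5.60, 5.79 and 5.26, a 40.2-fold difference (log2 5.33, SE 0.14, adjusted p = 4.56e-14). Sox6 (3.07), Tal1 (2.44), Foxo3 (2.42), Gata1 (1.68), Nfe2 (1.62) and Klf1 (1.57), which together drive red cell genes, were also higher. Klf1 stood at 9.03, 8.93 and 8.97 against 7.05, 7.48, 7.71 and 7.4, so its level in the TER119 negative fraction was 2.96-fold lower (SE 0.16 on the log2 scale, adjusted p = 3.08e-07).

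Among the 12 lower regulators was Myb, which keeps progenitors dividing and stood at 6.45, 6.10 and 7.00 against 9.18, 9.38, 9.54 and 8.99 (-2.76, SE 0.23, adjusted p = 4.12e-08), and Runx1 differed by -2.01 (SE 0.19, adjusted p = 1.3e-07). Gata2, which GATA1 replaces as cells mature, differed by -0.54 (SE 0.11, adjusted p = 0.000668) at levels between 4.95 and 5.64, and this turned to 0.053 with arrays centred on ribosomal protein genes. Myc (-0.75, SE 0.28, adjusted p = 0.0360) and Bcl11a (-0.94, SE 0.30, adjusted p = 0.0153) passed on all arrays, but Myc did not without KO TER119 positive replicate 1 or 2 or KO TER119 negative replicate 2 or 3 (-0.684 to -0.614, adjusted p 0.0943 to 0.137), nor Bcl11a without KO TER119 positive replicate 1 or 2 or KO TER119 negative replicate 3 (-0.885 to -0.743, adjusted p 0.0522 to 0.0898). With arrays centred on ribosomal protein genes neither Myc (-0.165, adjusted p = 0.633) nor Bcl11a (-0.354, adjusted p = 0.325) passed. The genes not passing on all arrays were Cbfa2t3 (0.06), Kdm1a (-0.29), Stat5b (0.16) and Zfp36l2 (-0.13), of which Kdm1a passed without KO TER119 negative replicate 4 (-0.46, adjusted p = 0.0492).

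Spi1 was higher in KO TER119 positive than in KO TER119 negative cells. It encodes PU.1, which drives myeloid fates and opposes GATA1, and stood at 9.04, 9.06 and 9.03 in KO TER119 positive arrays and at 8.19, 8.0, 8.06 and 7.41 in KO TER119 negative arrays, a difference of 1.12 (SE 0.22, adjusted p = 0.000385). In WT it was lower in TER119 positive cells, and the test of that contrast between genotypes is given with the WT comparison. The macrophage list was higher in TER119 positive cells of both genotypes, with medians of 1.58 in KO and 1.38 in WT. The neutrophil list was lower in both, with medians of -4.47 and -4.9. The part of these cells in the Spi1 values was not tested.

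Genes of late maturation were higher in 24 and lower in 3 of 30, with a median of 2.66. Tent5c, a poly(A) polymerase, stood at 11.90, 11.81 and 11.76 against 5.92, 6.11, 6.49 and 5.84, a 53.2-fold difference (log2 5.73, SE 0.15, adjusted p = 4.56e-14). Ube2o, the ubiquitin enzyme that clears ribosomes from reticulocytes, stood at 11.65, 11.56 and 11.50 against 6.16, 5.88, 6.23 and 5.91, a 46.1-fold difference (log2 5.53, SE 0.16, adjusted p = 2.23e-13). Both genes thus separated the fractions by more than 5 log2 units, with a spread of under 1 unit within either fraction.

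Other members of that list included Ypel4 (5.27), Xpo7, a nuclear exportin of maturing erythroblasts (4.95), Ube2l6, an ISG15-conjugating enzyme (4.42), Trim58, which degrades dynein before enucleation (2.91), and Plek2 (1.52), an actin regulator of enucleation. Bnip3l, the mitophagy receptor that removes mitochondria from reticulocytes, was already high in TER119 negative arrays, at 12.87, 12.85 and 12.75 against 11.72, 11.77, 11.49 and 11.85 (1.11, SE 0.10, adjusted p = 5.61e-08). The 3 lower genes were Rac2 (-1.82), a GTPase also abundant in granulocytes, the lipoxygenase gene Alox15 (-1.81) and the formin gene Diaph2 (-1.43). Rac1 (-0.15), Gabarapl1 (-0.11) and Cdc42 (-0.00) did not pass.

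Genes reported as activated by KLF1 overlapped these lists, and 27 of 29 measured were higher, with a median of 2.21. The 2 lower ones were Cd44 and Bcl11a. Klf3 itself, one of these genes, was at 10.55, 10.34 and 10.52 against 8.02, 8.49, 8.74 and 8.09 (2.13, SE 0.20, adjusted p = 1.75e-07). Because many members moved together, the 250 bases upstream of their RefSeq start sites (assembly GRCm38.p6) were searched on both strands for AGATAA, a core bound by GATA factors, and CACCC, the core bound by KLF proteins; neither motif can overlap the other.
The AGATAA core was found in the windows of 9 of 24 KLF1-activated genes with a window (37.5%) and of 9.94% of all 15614 tested genes with one, and CACCC in 19 of 24 (79.2%) against 58.2%. CACCC was frequent in other lists as well, at 30 of 35 hepatocyte-lineage genes (85.7%) and 12 of 16 haem synthesis genes (75.0%). Both were found in 7 of 24 (29.2%) against 4.59%. A gene was counted if any of its windows matched. Per window the shares were 25.7% against 8.45% for AGATAA, 74.3% against 55.4% for CACCC and 20.0% against 3.89% for both. In the other lists searched, AGATAA was found in 11.4% (hepatocyte-lineage) to 23.1% (membrane skeleton) of genes. A match describes these letters and is not evidence of binding. The windows of Alas2 (chrX:150547167-150547416, plus strand) and Epb42 (chr2:121036878-121037127, minus strand), the enzyme and the skeletal gene described above, are shown 5′ to 3′ with matches on either strand in capitals.
Alas2: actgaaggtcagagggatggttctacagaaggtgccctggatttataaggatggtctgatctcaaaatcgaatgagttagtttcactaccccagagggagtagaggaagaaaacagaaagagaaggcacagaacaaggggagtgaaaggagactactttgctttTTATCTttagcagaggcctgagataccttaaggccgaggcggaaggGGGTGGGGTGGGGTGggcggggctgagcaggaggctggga
Epb42: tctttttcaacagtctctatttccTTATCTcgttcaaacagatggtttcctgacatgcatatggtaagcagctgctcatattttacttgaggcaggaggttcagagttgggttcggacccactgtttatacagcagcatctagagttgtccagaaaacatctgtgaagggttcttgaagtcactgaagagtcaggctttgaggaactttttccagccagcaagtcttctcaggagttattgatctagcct
The Alas2 window held 1 AGATAA and 3 CACCC, all on the strand opposite to the gene, and the Epb42 window held 1 AGATAA and 0 CACCC. Their expression differences were 5.13 and 4.69, and whether motif counts relate to such differences was not tested.

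Among microRNA genes the pair of the erythroid miR-144 and miR-451 locus stood out by size. MicroRNAs are short RNAs that pair through their seed (bases 2 to 8) with target messages, and miR-451 and miR-144 accumulate as erythroblasts mature. Of 38 measured microRNA genes 5 were higher and 2 lower, shares of 13.2% and 5.26% that are below those of all genes. With arrays centred on ribosomal protein genes, which shifts most genes up, 34 were higher and 0 lower. Of the 38, 34 had a RefSeq hairpin, and mature sequences of the 5 higher genes are printed 5′ to 3′ with the seed in capitals (GRCm38.p6).
mmu-miR-144-3p, chr11:78073047-78073066, plus strand: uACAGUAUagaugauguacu
mmu-miR-451a, chr11:78073186-78073207, plus strand: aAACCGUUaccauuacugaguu
mmu-miR-15b-5p, chr3:69009775-69009796, plus strand: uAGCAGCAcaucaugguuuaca
mmu-miR-16-5p of Mir16-2, chr3:69009918-69009939, plus strand: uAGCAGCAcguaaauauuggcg
mmu-miR-16-5p of Mir16-1, chr14:61631936-61631957, minus strand: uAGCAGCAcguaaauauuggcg
The 15b and 16 members share the seed AGCAGCA and the mature miR-16 sequence comes from both Mir16 loci, whereas miR-144-3p and miR-451a have seeds of their own and lie in 1 cluster on chromosome 11. The arrays measured the primary or precursor transcripts in total RNA, not the mature forms alone.

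Mir144 stood at 7.92, 8.08 and 8.06 in TER119 positive arrays and at 4.99, 4.98, 4.91 and 5.06 in TER119 negative arrays (3.04, SE 0.14, adjusted p = 2.05e-11). Mir451a stood at 7.60, 7.47 and 7.34 against 4.79, 4.95, 4.66 and 4.92 (2.64, SE 0.17, adjusted p = 1.14e-09). Each TER119 positive array of both genes lay above 7.3 and each TER119 negative array below 5.1.

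The shared-seed genes varied more. Mir15b stood at 6.88, 5.72 and 7.55 against 4.61, 5.30, 5.12 and 5.43 (1.60, SE 0.52, adjusted p = 0.0176), a call lost without KO TER119 positive replicate 1 (1.52, adjusted p = 0.0579) or 3 (1.18, adjusted p = 0.109), or without KO TER119 negative replicates 1 and 4 together (1.5, adjusted p = 0.0744). Its neighbour Mir16-2 differed by 1.39 (SE 0.38, adjusted p = 0.00570) and Mir16-1 on another chromosome by 0.94 (SE 0.20, adjusted p = 0.000714). Smc4, the host gene of Mir15b and Mir16-2, did not pass, at 11.40 to 11.54 against 11.38 to 11.58 (-0.03, SE 0.10, adjusted p = 0.815; 0.555 with arrays centred on ribosomal protein genes).

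The 2 lower microRNA genes were Mir210, which hypoxia induces (-0.80, SE 0.12, adjusted p = 2.84e-05; -0.210, adjusted p = 0.178 with arrays centred on ribosomal protein genes), and Mir532 (-0.29, SE 0.09, adjusted p = 0.0117), whose call was lost without KO TER119 positive replicate 1 (-0.26, adjusted p = 0.0570) and which turned to 0.296 with arrays centred on ribosomal protein genes. Mir122, the liver microRNA, stood at 6.30, 6.18 and 4.80 against 4.90, 5.01, 5.10 and 5.22 (0.70, SE 0.31, adjusted p = 0.0694). It passed without KO TER119 positive replicate 3 (1.18, adjusted p = 0.000894) and without WT TER119 negative replicate 4 (0.70, adjusted p = 0.0458).

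Cell cycle genes did not move as a block. Of 50 measured, 28 (56.0%) were higher, 11 lower and 11 did not pass, with a median of 0.56. The 4 listed inhibitors of cyclin-dependent kinases were higher: Cdkn1c stood at 9.57, 9.79 and 9.37 against 6.23, 5.78, 5.46 and 6.07 (3.69, SE 0.23, adjusted p = 7.7e-10), and Cdkn2d, Cdkn1b and Cdkn2c differed by 3.23, 3.13 and 2.19.

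Among single genes of the list, Mki67, a mark of dividing cells, stood at 12.36, 12.37 and 12.37 against 10.43, 10.94, 11.03 and 11.10 (1.49, SE 0.15, adjusted p = 2.04e-07). Mcm2, of the replicative helicase, differed by 1.54. The cyclin genes split from their partner, with Ccnd3, the cyclin that sets the number of terminal divisions, at 2.02 and Cdk6 at -1.23 (SE 0.16, adjusted p = 7.28e-06). The largest fall was in Gins2, a subunit of the same helicase (-2.38, SE 0.12, adjusted p = 9.51e-11), and Pcna, the sliding clamp, differed by -0.46 (SE 0.09, adjusted p = 0.000259), or 0.125 with arrays centred on ribosomal protein genes.

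Erythropoietin and KIT receptor genes ran in opposite directions. Epor, the erythropoietin receptor gene, stood at 10.42, 10.33 and 10.32 in TER119 positive arrays and at 6.99, 7.59, 7.76 and 6.88 in TER119 negative arrays (3.05, SE 0.23, adjusted p = 7.17e-09), while Kit, for the receptor of stem cell factor, was lower (-2.91). Downstream, the survival kinase gene Pim1 stood at 11.36, 11.29 and 11.32 against 6.54, 6.44, 6.11 and 5.95 (5.06, SE 0.17, adjusted p = 1.05e-12), Bcl2l1, the anti-apoptotic BCL-XL, differed by 3.54 and Cish, a feedback inhibitor induced by STAT5, by 1.58. In all, 10 of 23 measured were higher and 8 lower. The other 5, Jak2 (0.38, adjusted p = 0.0523), Stat5b, Socs3 (0.30), Ptpn11 (-0.17) and Spry1 (0.20), did not pass, although Jak2 passed without KO TER119 negative replicate 3 or WT TER119 negative replicate 1, 3 or 4 (0.38 to 0.43, adjusted p 0.000879 to 0.0497) and Socs3 without KO TER119 positive replicate 1 (0.45, adjusted p = 0.0209) or KO TER119 negative replicate 1 (0.38, adjusted p = 0.0452).

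Markers of blood progenitors were lower in 16 of 29 (55.2%) and higher in 2, with a median of -0.66. With arrays centred on ribosomal protein genes 10 were lower, 11 higher and the median was -0.07. Cd34 stood at 6.08, 6.34 and 6.42 in TER119 positive arrays and at 9.71, 9.26, 9.13 and 9.07 in TER119 negative arrays (-3.01, SE 0.22, adjusted p = 6.51e-09). Flt3, a receptor of lymphoid-primed progenitors, differed by -2.0 and Cd48 by -2.56. The 2 higher members were Esam (1.10, SE 0.25, adjusted p = 0.00119) and Egfl7 (0.80, SE 0.17, adjusted p = 0.000766), which are endothelial genes too and stood on that list as well. The part of endothelial cells in their values was not tested.

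Granulocyte genes were lower in 24 of 25 (96.0%), with a median of -4.47. Mpo, the peroxidase of neutrophil granules, stood at 6.46, 6.11 and 6.20 in TER119 positive arrays and at 11.32, 11.31, 11.21 and 10.82 in TER119 negative arrays, 30.0-fold lower (log2 -4.91, SE 0.19, adjusted p = 3.48e-12). Elane, the granule elastase gene, was 17.8-fold lower (log2 -4.16, SE 0.17, adjusted p = 5.39e-12). Ltb4r1 (-0.79, SE 0.33, adjusted p = 0.0615) did not pass on all arrays and did without KO TER119 negative replicate 4 (-1.11, adjusted p = 0.00406) or WT TER119 negative replicate 3 (-0.79, adjusted p = 0.0346). The mean of the list was 5.0 to 5.26 in the TER119 positive arrays and 8.79 to 9.33 in the TER119 negative arrays.

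Mast cell and basophil genes were lower in 10 of 16 (62.5%) with 1 higher, Mcpt4 (0.26), a call that was lost without any of KO TER119 positive replicates 1 and 3, KO TER119 negative replicates 1 and 2 and WT TER119 positive replicates 1 and 4 (0.22 to 0.26, adjusted p 0.05 to 0.158). Cpa3, the mast cell carboxypeptidase, stood at 4.82, 4.82 and 4.81 against 10.26, 9.69, 9.58 and 10.24 (-5.12, SE 0.16, adjusted p = 3.57e-13), and Ms4a2, a chain of the IgE receptor, differed by -3.12. The protease genes Tpsab1 (0.04), Tpsb2 (-0.21), Cma1 (-0.27) and Prss34 (-0.38) and the receptor gene Mrgprb1 (0.11) did not pass. Of these, Prss34 passed without WT TER119 negative replicate 3 (-0.38, adjusted p = 0.0206). The list's median of -0.58 became 0.011 with arrays centred on ribosomal protein genes, while Cpa3 and Ms4a2 stayed lower.

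Lymphoid lists differed less. B lineage genes were lower in 11 of 22 (50.0%) and higher in 1, Bach2 (0.42), with a median of -0.36 that turned to 0.232 with arrays centred on ribosomal protein genes. Cd79b, a chain of the B cell receptor, differed by -1.89 (SE 0.21, adjusted p = 9.21e-07) and Il7r by -1.28 (SE 0.13, adjusted p = 2.34e-07). T and natural killer genes were lower in 9 of 21 (42.9%) and higher in 1, Bcl11b (0.57), with a median of -0.26 that turned to 0.327 under the same centring. Nkg7, of cytotoxic granules, stood at 4.30, 4.4 and 4.92 against 9.27, 8.79, 8.75 and 8.99 (-4.41, SE 0.21, adjusted p = 4.16e-11), whereas the defining T cell gene Cd3e stood at 4.67 to 4.80 against 4.70 to 4.90 (-0.12, SE 0.12, adjusted p = 0.451; 0.473 under that centring).

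Megakaryocyte and platelet genes were split, and the TER119 negative arrays disagreed among themselves. Of 20 measured, 3 were higher and 8 lower, with a median of -0.65, and with arrays centred on ribosomal protein genes 4 were higher, 3 lower and the median was -0.07. Pf4, a platelet chemokine, stood at 10.19, 10.08 and 10.53 in TER119 positive arrays and at 11.99, 11.03, 10.34 and 11.86 in TER119 negative arrays, so the groups overlapped (-1.04, SE 0.34, adjusted p = 0.0185). That call was lost without KO TER119 positive replicate 1 or 2 or KO TER119 negative replicate 1 or 4 (-0.998 to -0.807, adjusted p 0.0568 to 0.0699) and under the replicate block (-0.852, adjusted p = 0.0662). The Pf4 call was also lost with arrays centred on ribosomal protein genes (-0.448, adjusted p = 0.189). Without KO TER119 negative replicates 1 and 4 together it was lost too (-0.415, adjusted p = 0.323). For Ppbp, another platelet chemokine (-0.71, SE 0.27, adjusted p = 0.0400), the call was lost without any 1 of the KO arrays other than KO TER119 negative replicates 2 and 3 (-0.763 to -0.524, adjusted p 0.0629 to 0.124). The Ppbp call was also lost with only the KO arrays fitted (adjusted p = 0.0518) and with array weights (-0.44, adjusted p = 0.0828). The replicate block (-0.524, adjusted p = 0.109) and centring on ribosomal protein genes (-0.12, adjusted p = 0.649) lost it as well, as did leaving out KO TER119 negative replicates 1 and 4 together (-0.193, adjusted p = 0.571).

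The higher members of that list were Tubb1, the platelet tubulin (10, 10.02 and 10.25 against 8.02, 6.21, 6.17 and 7.80; 3.04, SE 0.45, adjusted p = 2.14e-05), Itga2b (1.35) and Vwf (1.25). Without KO TER119 negative replicates 1 and 4, an alternative chosen after seeing the data, 3 members were higher, 3 lower and the median was -0.04. The number of lower members ranged from 4 to 13 when single KO arrays were left out.

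Liver parenchyma genes were higher almost throughout. Of 43 measured hepatocyte-lineage genes 38 (88.4%) were higher and 0 lower, with a median of 4.50. Albumin (Alb) stood at 13.68, 13.69 and 13.54 in TER119 positive arrays and at 9.57, 8.74, 8.37 and 10.35 in TER119 negative arrays (4.38, SE 0.49, adjusted p = 1.07e-06), and alpha-fetoprotein (Afp), made by fetal hepatoblasts, at 13.09, 13.04 and 12.78 against 8.88, 8.01, 7.38 and 9.62 (4.50, SE 0.51). The transcription factor gene Hnf4a stood at 8.76, 8.86 and 8.50 against 5.24, 5.18, 5.30 and 5.22 (3.47, SE 0.17, adjusted p = 4.74e-11). Its TER119 negative values spread less than those of Alb and Afp. They lay near the array medians of 5.28 to 5.43, however, and RMA compresses differences of dim genes. Hpx, for a secreted protein, was also even there at 4.17 to 4.52.

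The 5 members that did not pass were Foxa2 (-0.07; 0.517 with arrays centred on ribosomal protein genes), Krt19 (0.18), a marker of bile duct cells, Fgl1 (-0.04; 0.548 under that centring), Ces1c (0.21) and Tdo2 (0.03), the last being an enzyme of mature hepatocytes. Foxa3, of the same family as Foxa2, was higher (2.03, SE 0.18, adjusted p = 6.96e-08). Of 33 complement and coagulation genes, most of which the liver makes, 30 (90.9%) were higher and 0 lower, with a median of 3.42, and F5 (-0.05; 0.539 under that centring), Pros1 (-0.66) and Mbl2 (0.26) did not pass. Pros1 passed without KO TER119 negative replicate 3 (-0.92, adjusted p = 0.0210).

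Macrophage genes were higher in 20 of 29 and lower in 2, with a median of 1.58. Cd5l, an inhibitor of apoptosis secreted by tissue macrophages, stood at 10.29, 10.41 and 9.67 in TER119 positive arrays and at 4.08, 3.99, 3.97 and 4.25 in TER119 negative arrays (6.05, SE 0.15, adjusted p = 4.56e-14). Vcam1, the adhesion molecule with which island macrophages hold erythroblasts, stood at 9.90, 9.93 and 9.61 against 5.81, 5.46, 5.39 and 5.77 (4.21, SE 0.15, adjusted p = 2.54e-12). The groups lay far apart for both genes.

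Spic, a factor of iron-recycling macrophages, differed by 4.00, and Marco, a scavenger receptor, by 4.4. The general markers Csf1r (2.11) and Adgre1 (1.91) differed by less. The 2 lower genes, Itgam (-2.85) and Lyz2 (-2.27), are shared with granulocytes, whose list was lower and whose part in these values was not tested. Cd163 (-0.04, adjusted p = 0.782; 0.552 with arrays centred on ribosomal protein genes) and Vsig4 (0.33, adjusted p = 0.123) stood below 5 on all 7 arrays and did not pass.

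Endothelial genes were higher in 21 of 27 and lower in 2, with a median of 1.10. Cdh5, the cadherin of endothelial junctions, stood at 8.2, 8.45 and 8.45 against 5.07, 4.42, 4.41 and 4.78 (3.69, SE 0.16, adjusted p = 1.5e-11), and Stab2, a scavenger receptor of liver sinusoids, differed by 3.15 (SE 0.29, adjusted p = 1.07e-07). Pecam1, which platelets and leukocytes also carry, did not pass and overlapped (6.87, 7.08 and 7.06 against 7.58, 6.53, 6.51 and 7.05), and neither did Emcn (0.13), Sox18 (0.42) or Cldn5 (0.05), of which Sox18 passed without WT TER119 positive replicate 4 (0.42, adjusted p = 0.0292). The 2 lower ones, Erg (-0.94; -0.353, adjusted p = 0.0913 with arrays centred on ribosomal protein genes) and the Fc receptor gene Fcgr2b (-1.24), are also expressed in blood cells, whose part in these values was not tested.

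Stromal and stellate genes were higher in 19 of 27 and lower in 3, with a median of 1.34. Reln, an extracellular glycoprotein of hepatic stellate cells, stood at 9.78, 9.78 and 9.36 against 5.02, 4.92, 4.90 and 5.02 (4.67, SE 0.18, adjusted p = 3.92e-12). The matrix genes Dcn and Col1a1 differed by 3.12 and 2.03, and the niche chemokine gene Cxcl12, which retains stem cells, by 3.11. Hgf (-1.49), Ncam1 (-1.43) and Vim (-0.39) were lower, Vim losing its call without any of KO TER119 positive replicates 1 and 3 and KO TER119 negative replicates 1, 2 and 4 (-0.393 to -0.321, adjusted p 0.0692 to 0.157) and turning to 0.199 with arrays centred on ribosomal protein genes. Lrat (0.19), Tagln (0.02), Lhx2 (-0.11), Hand2 (0.18) and Ngfr (-0.15) did not pass.

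Genes of sugar use and of protection from oxidation were higher on balance. Of 23 glycolysis genes 14 were higher and 3 lower, Pfkp (-1.75), Minpp1 (-0.80) and Ldha (-0.48). With arrays centred on ribosomal protein genes Ldha turned to 0.112 and Minpp1 no longer passed (-0.215, adjusted p = 0.293). Bpgm, which makes the 2,3-bisphosphoglycerate that lowers the oxygen affinity of haemoglobin, stood at 10.57, 10.35 and 10.26 against 6.90, 7.02, 7.10 and 6.97 (3.39, SE 0.18, adjusted p = 1.09e-10), and the red cell and liver pyruvate kinase gene Pklr differed by 1.76. The largest differences in that list were in 3 glucose transporter genes, the muscle and fat type Slc2a4 (4.31), the liver type Slc2a2 (4.00) and the widely expressed Slc2a1 (3.98).

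Among 34 antioxidant genes 22 were higher and 3 lower, with a median of 0.71. Catalase (Cat) stood at 11.50, 11.41 and 11.33 against 8.99, 9.21, 9.41 and 8.94 (2.28, SE 0.12, adjusted p = 1.41e-10). Gpx4, Gpx1 and Prdx2, peroxidases of red cell precursors, differed by 2.31, 1.71 and 1.15. Sod1 (-0.56), Gsta4 (-0.75) and Gstm5 (-0.54) were lower, and Sod1 and Gstm5 turned to 0.023 and 0.046 with arrays centred on ribosomal protein genes. Gsta4 no longer passed under that centring (-0.163, adjusted p = 0.398).

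Clearance machinery was split. Of 39 autophagy genes 23 were higher and 5 lower. The kinase gene Ulk1, which starts autophagy, stood at 9.03, 8.81 and 8.96 against 5.78, 5.82, 6.17 and 5.61 (3.09, SE 0.13, adjusted p = 1.3e-11), and Gabarapl2, of the family that coats the membrane, at 11.95, 11.91 and 11.66 against 8.43, 8.18, 8.11 and 8.06 (3.64, SE 0.13, adjusted p = 1.32e-12). Lower were Pik3c3 (-1.67), Atg3 (-1.58), Fundc1 (-1.52), Atg10 (-1.51) and Atg5 (-0.58), of which Atg3, Atg5 and Atg10 act in the conjugation of that coat, and Atg5 turned to 0.003 with arrays centred on ribosomal protein genes and lost its call without KO TER119 negative replicates 1 and 4 together (-0.355, adjusted p = 0.106).

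Proteasome genes were lower in 27 (64.3%) and higher in 9 of 42, with a median of -0.80. The core subunit gene Psma7 stood at 9.19, 9.06 and 9.25 against 11.92, 11.58, 11.40 and 11.80 (-2.51, SE 0.13, adjusted p = 1.28e-10), and the immunoproteasome subunit gene Psmb9 differed by -1.77. Psmf1, which encodes an inhibitor of the proteasome, had the largest rise (1.65, SE 0.17, adjusted p = 3.25e-07). With arrays centred on ribosomal protein genes 20 members were lower, 15 higher and the median was -0.21.

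Ribosomal protein genes were lower in 34 (69.4%) and higher in 6 of 49, with a median of -0.54 that is 0.044 by construction when arrays are centred on these genes. Rpl37a stood at 10.43, 10.56 and 10.66 against 12.70, 12.74, 12.66 and 12.93 (-2.21, SE 0.10, adjusted p = 3.9e-11), and Rplp1 at 12.05, 11.94 and 12.03 against 11.09, 11.22, 11.10 and 11.60 (0.75, SE 0.17, adjusted p = 0.00142). Members therefore did not move together, and copies of these genes in the genome can share probes. Respiratory chain genes were mixed as well, with 15 of 51 higher, 23 lower and a median of -0.11 that turned to 0.477 under that centring; Uqcrc1 differed by 2.53 (SE 0.16) and Cox6b1 by -2.42 (SE 0.12), each with arrays of the fractions far apart.

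Chromatin genes had 9 of 33 higher and 13 lower, with a median of -0.06 that turned to 0.533 with arrays centred on ribosomal protein genes. Lmna, for the lamin of differentiated nuclei, stood at 9.0, 9.05 and 8.98 against 5.51, 5.50, 5.61 and 5.13 (3.57, SE 0.14, adjusted p = 4.18e-12). Lower were Tet1, a 5-methylcytosine oxidase (-2.33, SE 0.21), and the deacetylase gene Hdac2, which acts in nuclear condensation, at 9.88, 10.01 and 10.13 against 11.72, 11.83, 11.74 and 11.88 (-1.79, SE 0.09, adjusted p = 8.83e-11).

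Among 24 measured genes for KLF and SP factors, 12 were higher and 4 lower, Klf7 (-1.01), Sp7 (-0.61), Klf9 (-0.52) and Klf17 (-0.35). The largest rise was that of Klf12, a CtBP-binding repressor like KLF3 (8.13, 8.24 and 7.63 against 5.2, 4.80, 4.59 and 5.59; 2.96, SE 0.34, adjusted p = 1.3e-06). Klf8, another repressor of that group, stood at 7.62, 7.86 and 7.84 against 5.85, 5.68, 5.84 and 5.54 (2.05, SE 0.12, adjusted p = 6.98e-10). Klf17 lost its call without KO TER119 positive replicate 1 or 2 (-0.316 and -0.326, adjusted p 0.0591 and 0.0532). With arrays centred on ribosomal protein genes Klf9 and Klf17 turned to 0.066 and 0.238. Under that centring Klf7 (-0.422, adjusted p = 0.120) and Sp7 (-0.021, adjusted p = 0.912) no longer passed.

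The 4 KO TER119 negative arrays were not alike, as the plot of list means by array shows. Replicates 1 and 4 had the higher means of hepatocyte genes, 5.72 and 6.01 against 5.30 and 5.18 in replicates 2 and 3, and of megakaryocyte genes, 9.19 and 8.95 against 7.93 and 7.45. Their means of membrane skeleton genes were lower, 8.65 and 8.41 against 8.76 and 8.85, as were those of haem synthesis genes, 8.01 and 7.88 against 8.23 and 8.40. Globin genes ran the other way, with means of 5.76 and 6.23 against 5.62 and 5.39. The TER119 positive arrays were closer to each other, with haem synthesis means of 10.13, 10.11 and 10.09, and their replicate 3 had the lowest hepatocyte mean. With KO TER119 negative replicates 1 and 4 left out together, 8655 genes passed, the hepatocyte list had 38 higher members with a median of 5.08, the skeleton list 14 higher and 1 lower with a median of 2.19, and the neutrophil list 25 lower with a median of -4.27.

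**Figure D3:**
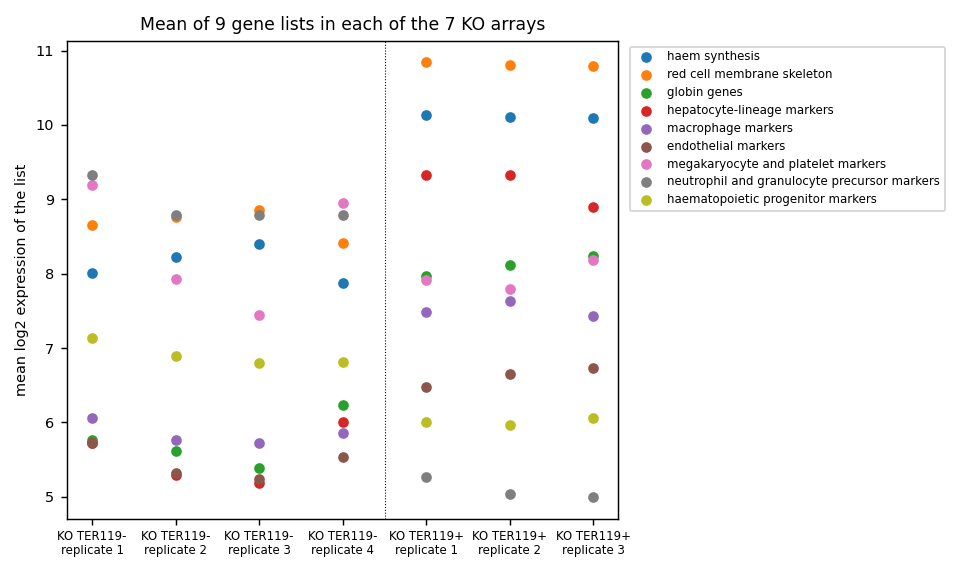
Mean log2 expression of 9 gene lists (colours) in each of the 4 KO TER119 negative and 3 KO TER119 positive arrays (horizontal axis; replicate numbers have no order). Megakaryocyte list means ran from 7.45 to 9.19 in the TER119 negative arrays, while neutrophil list means lay at 8.79 to 9.33 there and at 5.0 to 5.26 in the TER119 positive arrays.

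The last comparison asked whether the fractions differed in KO otherwise than in WT. For most genes the KO and WT values lay close together. Of the 9777 KO calls 88.5% were also called in WT in the same direction, as were 82.5% of the 10486 WT calls (52.6% of all genes) in KO, and across genes, which are not independent replicates, the KO and WT differences correlated at r = 0.972. The difference between the KO and the WT contrast passed for 87 genes (0.436%), 74 (0.371%) with a more positive and 13 (0.0652%) with a more negative difference in KO, and 852 genes had an unadjusted p under 0.05. Of these 87, 79 were called in KO, 26 in KO and not in WT, and 8 in WT and not in KO.

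**Figure D4:**
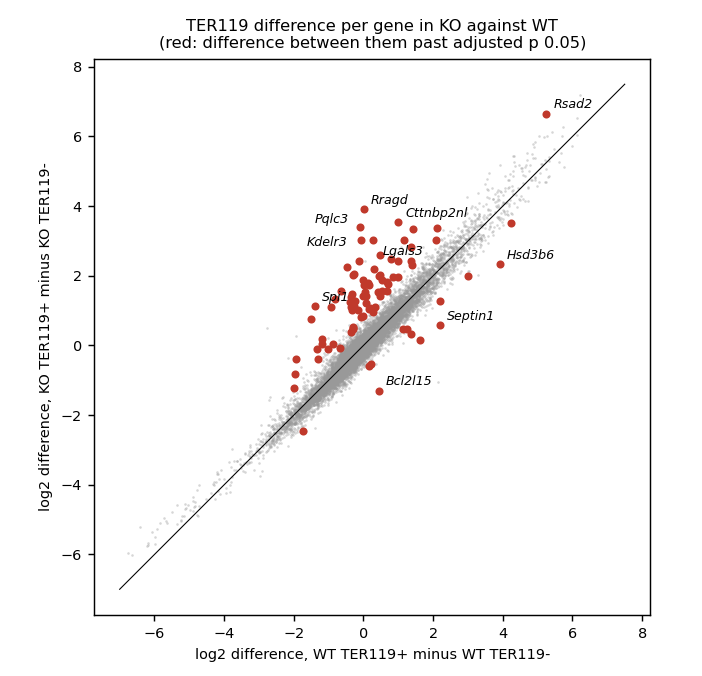
Log2 difference between TER119 positive and negative cells in KO (vertical axis) against the same difference in WT (horizontal axis), 1 point per gene for 19938 genes, with the line of equal values. The 87 genes whose difference differed between KO and WT are red, and 74 of them lie above the line.

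Genes reported as repressed by KLF3 were in this set. All 4 listed, Klf8, Lgals3, C1qtnf12 and Rragd, were higher in TER119 positive cells in KO (median 2.53), the median in WT was -0.13, and all 4 passed the test of the difference. Rragd, which encodes a small GTPase of the lysosomal mTORC1 pathway, stood at 9.50, 9.40 and 9.44 in KO TER119 positive and at 5.21, 5.71, 5.96 and 5.28 in KO TER119 negative arrays, whereas WT means were 4.68 in both fractions. Its difference was 3.91 in KO and 0.01 in WT (KO minus WT 3.90, SE 0.20, adjusted p = 4.48e-08). The list was drawn up with earlier results of these arrays known, so it is not independent evidence of direction.

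Lgals3, which encodes galectin-3, a sugar-binding protein, stood at 10.62, 10.47 and 10.48 against 7.86, 7.32, 7.20 and 7.65 in KO, with WT means of 7.58 and 7.29 (KO minus WT 2.73, SE 0.21, adjusted p = 1.03e-06). Klf8 had WT means of 4.71 and 4.98 (KO minus WT 2.31, SE 0.17, adjusted p = 8.6e-07). C1qtnf12, a secreted hormone of the C1q family, was higher in TER119 positive cells in KO (0.77) and lower in WT (-1.51), with a KO minus WT difference of 2.29 (SE 0.17, adjusted p = 1.03e-06).

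Other large differences were in genes of varied function. Pqlc3, for a PQ-loop membrane protein, stood at 10.84, 10.57 and 10.50 against 7.18, 7.25, 7.45 and 7.05 in KO, with WT means of 6.55 and 6.65 (KO minus WT 3.51, SE 0.20, adjusted p = 5.7e-08). Kdelr3, a retrieval receptor of the endoplasmic reticulum, had a KO minus WT difference of 3.08, Supt3, of the SAGA coactivator complex, 2.73, Hydin, of motile cilia, 2.55, and Cttnbp2nl, a cytoskeletal adaptor, 2.54. In each of these genes the KO TER119 positive arrays stood apart from the other 3 groups, and the RMA values carry no detection calls, so whether the WT levels of Rragd, Kdelr3 (4.25) and Hydin (4.51) lie above background is unknown.

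Spi1 changed direction between genotypes. Its difference was 1.12 in KO and -1.40 in WT (KO minus WT 2.53, SE 0.30, adjusted p = 0.000216), with WT means of 6.68 in TER119 positive and 8.09 in TER119 negative cells against 9.04 and 7.92 in KO. In all, 19 genes were called in opposite directions in KO and WT, 16 of them with a call for the difference itself. Mir144 (KO minus WT 0.95, SE 0.18, adjusted p = 0.0285) and Rsad2 (1.41, SE 0.21, adjusted p = 0.0031) were higher in TER119 positive cells in both genotypes and by more in KO, but the Mir144 call between genotypes was lost in 14 of 25 alternatives (adjusted p up to 0.160).

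The more negative differences were smaller. Bcl2l15, of the BCL2 family, was lower in TER119 positive cells in KO (5.74, 5.79 and 6.09 against 7.17, 6.95, 7.23 and 7.36) and higher in WT (0.44), with a KO minus WT difference of -1.74 (SE 0.17, adjusted p = 3.43e-05); here the KO TER119 negative arrays stood apart, WT TER119 negative cells having a mean of 5.47. Septin1, of the septin cytoskeleton, and Hsd3b6, a steroid dehydrogenase, were higher in TER119 positive cells in both genotypes but by less in KO, 0.59 against 2.20 and 2.34 against 3.91 (KO minus WT -1.61, adjusted p = 5.55e-05, and -1.57, adjusted p = 0.0356). Cd209f (-1.48), Serpinb6a (-1.03), Amot (-1.0), Dcaf6 (-0.90) and Galnt1 (-0.80) complete the 8 largest. Of these 8 calls, those of Bcl2l15 and Septin1 held under all 25 alternatives run for this contrast, Cd209f was lost in 1 of 24 and Dcaf6 in 2 of 25, while Amot was lost in 6, Hsd3b6 in 16, Serpinb6a in 16 and Galnt1 in 17 of 25.

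Serpinb6a, an intracellular protease inhibitor, was at 8.84, 9.15 and 9.09 against 8.78, 8.53, 8.67 and 8.78 in KO (0.34, adjusted p = 0.0819; 0.0260 without WT TER119 negative replicate 3) and at means of 8.44 and 7.07 in WT. The count of 87 ranged from 61, without KO TER119 positive replicate 1, to 93 when single arrays were left out, and was 60 with sex as a factor, WT TER119 negative arrays being all male. Of the 13 more negative calls, 5 were left with sex as a factor, 3 with the replicate block and 4 without KO TER119 positive replicate 3.

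**Figure D5:**
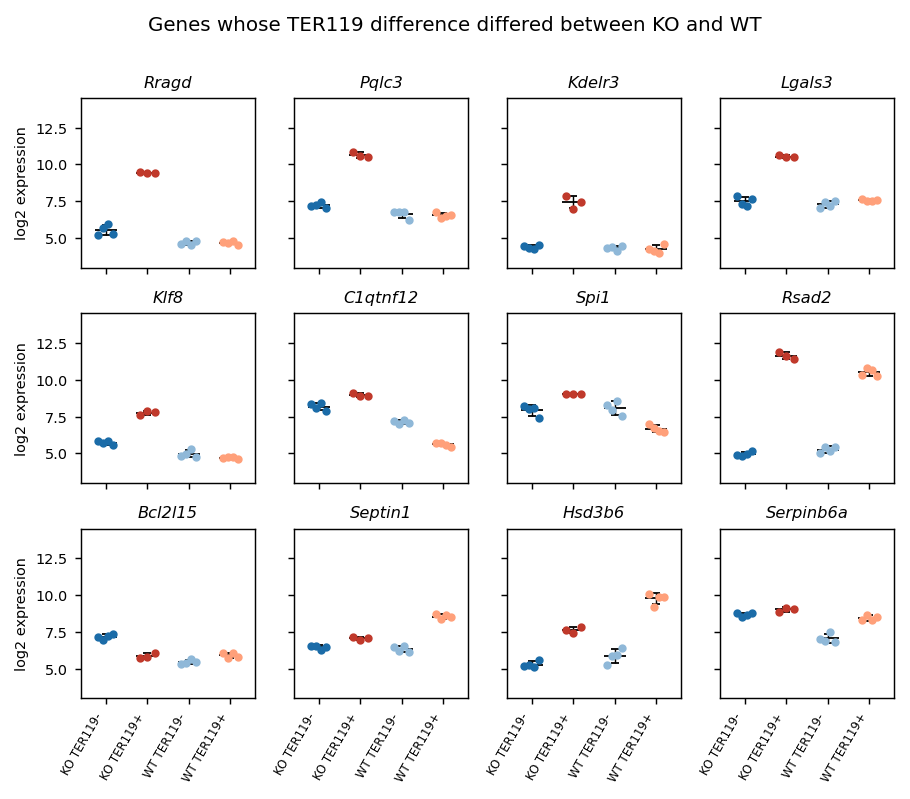
Deposited log2 expression of 12 genes whose TER119 difference differed between KO and WT, on each of the 15 arrays (points), with the mean and SD of each group (bars); the horizontal axis gives the 4 groups. Rragd, Pqlc3, Kdelr3, Lgals3 and Klf8 were high in KO TER119 positive arrays, where Rragd lay between 9.40 and 9.50, and Bcl2l15 was high in KO TER119 negative arrays.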

How the data were processed

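RNA of magnetically sorted fetal liver cells had been biotin-labelled and hybridised to Affymetrix Mouse Gene ST arrays. The deposited values are log2 expression per probe set, summarised by the authors with RMA and Partek, per the submitters' processing notes, with versions and the number of runs not given in the sources used here. The RMA method makes the arrays' distributions alike, gives no detection call and compresses differences of dim genes. Of 35399 probe sets, 21789 had 1 gene symbol, and for each of 19938 genes the one with the highest mean over 15 arrays was kept; probe sets with several symbols (1621) or none (11989) were left out. Names and sequences are from RefSeq. limma 3.58.1 in R 4.3.3 fitted 4 group means to all 15 arrays (lmFit and eBayes, 11 residual degrees of freedom) and tested KO TER119 positive minus negative, the same in WT, and their difference, with Benjamini-Hochberg adjustment and a threshold of 0.05; the script was tested on simulated data. The members and gene lists were chosen with earlier results of these data known. Named genes are the 12 largest rises and falls whose arrays did not overlap, key members and the 4 largest differences of each list, the 8 largest differences between KO and WT in each direction, and genes behind counts of 5 or fewer; any other was chosen after its values were seen. Alternatives were another scaling, variance model, array weights, filter, probe set rule, sex as a factor, the replicate block, a test against 2-fold, and leaving out arrays. Deviations of arrays with the same replicate number correlated at -0.31 to 0.12 between fractions. These values cannot tell whether such arrays share an embryo or litter, and the main fit took them as unpaired.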

Additional observations from a re-analysis of the deposited data

Results flagged for a closer look

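Of 250 genes looked at 4, and of 31 list means 5, had 1 KO TER119 negative array far from the other 3. Chance alone does this in about 1 in 20 groups, and the share was below that for genes and above it for list means, which come from the same arrays. The far arrays were at 4.09 for Krt19, 4.47 for Mir532, 11.21 for Cd24a and 6.5 for Stat5b. For list means they were at 7.66 for late maturation, 6.86 for erythropoietin and KIT signalling, 9.33 for neutrophil, 10 for respiratory chain and 7.25 for autophagy genes. The neutrophil mean of 9.33 was that of replicate 1, the other 3 arrays being at 8.79.

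The TER119 difference itself differed between KO and WT, by the limma test of that difference, for 21 named genes. Of the 12 more positive calls 11, all but Mir144, held under every alternative run, as did 2 of the 9 more negative ones, Bcl2l15 and Septin1. It was more positive in KO for Rragd (3.90), Pqlc3 (3.51), Kdelr3 (3.08), Supt3 (2.73), Lgals3 (2.73), Hydin (2.55), Cttnbp2nl (2.54), Spi1 (2.53), Klf8 (2.31), C1qtnf12 (2.29), Rsad2 (1.41) and Mir144 (0.95). It was more negative for Bcl2l15 (-1.74), Septin1 (-1.61), Hsd3b6 (-1.57), Cd209f (-1.48), Serpinb6a (-1.03), Amot (-1.0), Dcaf6 (-0.90), Galnt1 (-0.80) and Gstm5 (-0.77). Gstm5 was lower in TER119 positive cells in KO (-0.54) and 0.22 in WT, and its KO difference turned to 0.046 with arrays centred on ribosomal protein genes. Rsad2 is induced by interferon, and Mir144 rose beside its neighbour Mir451a, for which the difference between KO and WT did not pass (0.85, adjusted p = 0.264).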

How the results depend on the processing

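The number of arrays limits precision, and no array gives a background level. Of 250 named genes, 148 kept their direction and side of the threshold under every alternative run and 102 did not. These alternatives include the test against a 2-fold change, in which a called gene that differs by less than 2-fold loses its call by construction. With arrays centred on ribosomal protein genes, 15583 genes passed in KO, 15919 in WT and 56 for the difference between KO and WT, against 9777, 10486 and 87. Tested against a 2-fold change, 2446 passed in KO and 2416 in WT. With the replicate block, 52 passed for the difference between KO and WT, 8833 in KO and 9913 in WT; the labels do not say that numbers mark pairs, and the correlations of deviations of same-numbered KO arrays were -0.03, -0.13 and 0.05. Leaving out 1 array gave 8722 to 10260 genes in KO, 9647 to 10934 in WT and 61 to 93 for their difference. Leaving out KO TER119 negative replicates 1 and 4 together, chosen after seeing the data, gave 8655, 10515 and 58.

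Centring on ribosomal protein genes turned the KO difference positive, as its construction shifts most genes up, in Gata2 (0.053), Pcna (0.125), Foxa2 (0.517), Cd163 (0.552), Cd3e (0.473), Mir532 (0.296), Smc4 (0.555), Slc14a1 (0.175), Cd55 (0.034), Sptbn1 (0.483), Hmox2 (0.028), Zfp36l2 (0.460), Rac1 (0.441), Cdc42 (0.588), Fgl1 (0.548), Tpsb2 (0.381), Cma1 (0.319), Vim (0.199), Lhx2 (0.482), Ngfr (0.440), Ldha (0.112), Sod1 (0.023), Gstm5 (0.046), Atg5 (0.003), Klf9 (0.066), Klf17 (0.238) and F5 (0.539). It also turned the list medians of B lineage (0.232), mast cell (0.011), T and natural killer (0.327), ribosomal protein (0.044), respiratory chain (0.477) and chromatin genes (0.533). The median of microRNA genes turned to -0.007 with arrays centred on the median of all genes.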
